A study of Mus musculus with 12 samples.

Results

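Aqp1, Rbfox1, Gata2 and Egflam were the 4 genes with the most negative interaction, as edgeR fits it, between the 2 knockouts, within limits given below. The cells were mouse embryonic fibroblasts, connective tissue cells grown from embryos, with 37991 gene identifiers counted and 15098 genes tested. The interaction is given here as the mean log2 CPM (counts scaled to library size) of the libraries labelled double knockout (DKO), less the means of both single knockouts, plus that of the wild type (WT). A value of 0 means that the 2 single differences add up on the log2 scale, and a negative value means that the RNA stood lower in DKO than that sum. The genes were selected on edgeR's log2 interaction, the same contrast of the same libraries, among those called in it with a symbol and a mean of at least 2 CPM, so their levels and differences are given as a description, with no test. RNA was counted in 12 libraries, 3 per genotype: Gadd45a-/-;Ing1-/- (DKO), Ing1-/- (Ing1 KO), Gadd45a-/- (Gadd45a KO) and WT from the same interbreeding. All cells were primary, of C57BL/6N background, from male E15.5 embryos, and were harvested at passage 4 and 80% confluency. Both knockouts were bred into the mice and not made in culture. Whether 3 libraries of 1 genotype stand for 3 embryos or for cultures of 1 embryo is not in the labels, and p-values here measure the spread between these samples, which may be technical.

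Gene counts per library ran from 31493168 to 42852059. Ing1, a reader of a histone mark of active promoters, stood at 0.916 to 1.29 CPM in DKO, 1.01 to 1.42 CPM in Ing1 KO, 49.7 to 54.5 CPM in Gadd45a KO and 50.4 to 54.4 CPM in WT. Gadd45a, a stress-induced gene linked to DNA repair and demethylation, went against its label: it stood at 120 to 132 CPM in DKO and 75.9 to 118 CPM in the libraries labelled Gadd45a KO, against 16.7 to 20.5 CPM in Ing1 KO and 20.9 to 21.3 CPM in WT. A count over the whole gene does not check a deletion of part of it, and the labels do not name the deleted part. DKO and Gadd45a KO are therefore names of labels throughout, and each direction below rests on those labels. Fibroblast markers summed to 60100 to 66400 CPM in DKO, 58800 to 66900 in Ing1 KO, 64500 to 72000 in Gadd45a KO and 61300 to 66100 in WT. These sums overlapped, but single markers differed. Of 10 tested, 3 were called higher and 4 lower in Ing1 KO against WT (12.1% and 11.4% of all genes were). In DKO against WT 0 were higher and 2 lower (15.6% and 10.3% of all genes were). Macrophage markers summed to 1850 to 2330 CPM in DKO, 289 to 506 in Ing1 KO, 112 to 446 in Gadd45a KO and 214 to 371 in WT, so DKO stood apart from the other 3 genotypes, which overlapped.

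The 4 genes have unlike roles. Aqp1 encodes a water channel of the plasma membrane, known from red cells, kidney tubules, capillary endothelium and mesothelium. Rbfox1 encodes an RNA-binding protein that sets alternative splicing in neurons, heart and skeletal muscle. Gata2 encodes a zinc finger transcription factor of blood stem cells, mast cells and endothelium, which in fat cell precursors holds back differentiation. Egflam encodes pikachurin, a secreted matrix protein that binds dystroglycan at the photoreceptor synapse. In RefSeq's mouse promoter table (GRCm38.p6), all 4 had at least 1 window of 250 bases before to 50 bases after a start site. The count tables use an older build (mm9), to which these coordinates do not apply. The sequences are shown because the 4 starts differ in CpG content, and CpG dinucleotides, where mammalian DNA is methylated, are in capitals.
Aqp1 (chr6:55336049-55336348, plus strand): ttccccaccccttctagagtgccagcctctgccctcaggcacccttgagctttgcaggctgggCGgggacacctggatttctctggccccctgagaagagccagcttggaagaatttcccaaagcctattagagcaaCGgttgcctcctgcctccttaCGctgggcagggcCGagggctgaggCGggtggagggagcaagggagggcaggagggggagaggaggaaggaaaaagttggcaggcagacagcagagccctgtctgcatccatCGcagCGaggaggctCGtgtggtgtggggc
Rbfox1, first start (chr16:5884543-5884842, plus strand): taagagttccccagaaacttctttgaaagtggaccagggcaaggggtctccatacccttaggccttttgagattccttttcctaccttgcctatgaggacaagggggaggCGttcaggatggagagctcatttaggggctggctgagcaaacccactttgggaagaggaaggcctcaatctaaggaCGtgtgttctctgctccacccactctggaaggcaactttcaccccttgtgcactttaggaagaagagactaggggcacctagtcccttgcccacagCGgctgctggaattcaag
Rbfox1, second start (chr16:7069585-7069884, plus strand): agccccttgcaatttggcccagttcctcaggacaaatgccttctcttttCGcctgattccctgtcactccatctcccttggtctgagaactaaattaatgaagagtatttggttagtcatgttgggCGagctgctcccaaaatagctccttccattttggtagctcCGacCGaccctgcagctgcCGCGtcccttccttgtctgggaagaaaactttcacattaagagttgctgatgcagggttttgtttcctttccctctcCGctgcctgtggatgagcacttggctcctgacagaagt
Gata2, first start (chr6:88193641-88193940, plus strand): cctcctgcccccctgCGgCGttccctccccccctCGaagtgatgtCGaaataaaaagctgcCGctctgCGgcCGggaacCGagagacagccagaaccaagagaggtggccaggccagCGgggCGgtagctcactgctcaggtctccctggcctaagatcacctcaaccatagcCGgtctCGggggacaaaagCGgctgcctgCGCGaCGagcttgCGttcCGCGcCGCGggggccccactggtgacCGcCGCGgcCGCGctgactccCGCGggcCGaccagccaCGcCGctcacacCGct
Gata2, second start (chr6:88198414-88198713, plus strand): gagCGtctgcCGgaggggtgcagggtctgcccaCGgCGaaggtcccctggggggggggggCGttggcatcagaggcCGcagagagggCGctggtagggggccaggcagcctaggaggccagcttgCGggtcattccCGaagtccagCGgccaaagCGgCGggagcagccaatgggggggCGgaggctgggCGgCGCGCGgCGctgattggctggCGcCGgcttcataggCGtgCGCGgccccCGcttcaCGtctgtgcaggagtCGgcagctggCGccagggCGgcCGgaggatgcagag
Egflam (chr15:7398346-7398645, minus strand): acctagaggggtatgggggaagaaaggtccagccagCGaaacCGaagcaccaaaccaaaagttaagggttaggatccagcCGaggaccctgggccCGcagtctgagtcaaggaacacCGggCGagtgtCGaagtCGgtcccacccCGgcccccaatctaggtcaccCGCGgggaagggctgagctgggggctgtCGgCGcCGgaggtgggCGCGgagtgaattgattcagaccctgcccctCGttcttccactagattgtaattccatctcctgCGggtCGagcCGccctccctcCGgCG

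The starts ran from CpG-poor to CpG-rich. Gata2 had 32 and 29 CpG dinucleotides in its 2 windows and Egflam 22, while Aqp1 had 8 and Rbfox1 3 and 7. The median over the 32841 mouse windows of the table was 7. The ratio of CpG dinucleotides observed to those expected from base content was 0.9 and 0.76 for Gata2, 0.74 for Egflam, 0.278 for Aqp1, and 0.144 and 0.38 for Rbfox1. The genes with the same kind of start did not share the same pattern of levels (below): Gata2 paired in level with Rbfox1, and Egflam with Aqp1. Of 5 motifs searched on both strands, none of which contains another, the GC box GGGCGG was in the windows of Aqp1, Gata2 (both) and Egflam, and in 35.7% of all windows. The CCAAT box, spelled CCAAT, was in the second Gata2 window and in that of Egflam, and in 37.4% of all windows. The AP-1 site TGANTCA was in the Egflam window and in 7.81% of all windows. The TATA box TATAAA (13.6% of all windows) and the GATA site AGATAA (11.2%) were in none of the 6 windows, and neither Rbfox1 window held any of the 5.

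**Figure D1:**
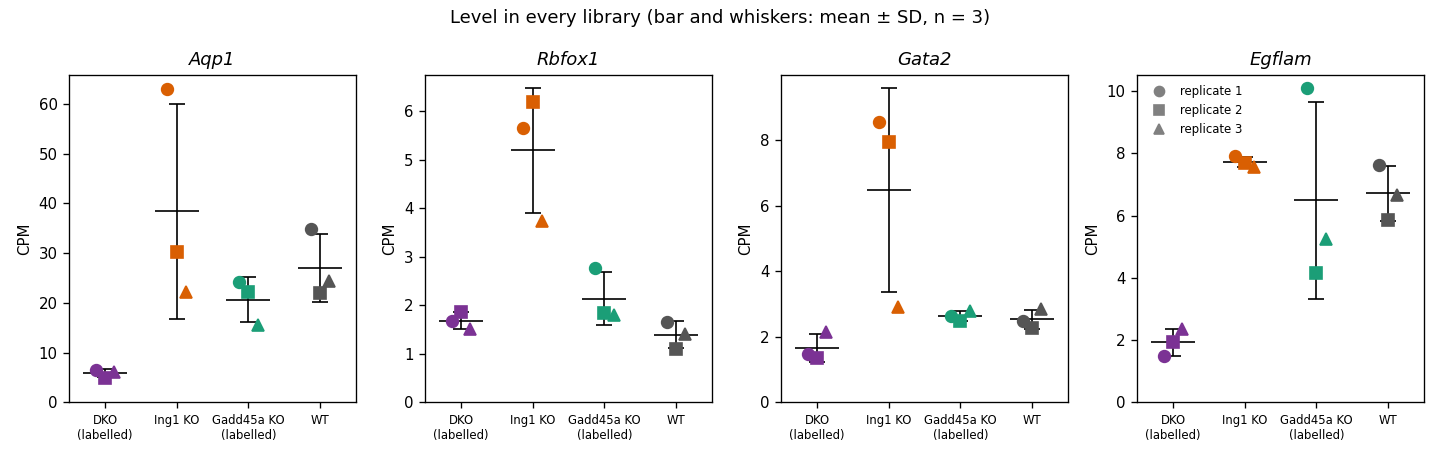
CPM of each gene in every library (points, with the symbol giving the replicate number) with the mean and SD of 3 libraries, for DKO, Ing1 KO, Gadd45a KO and WT from left to right. Aqp1 and Egflam are low in DKO alone, with means of 5.85 and 1.93 CPM, whereas Rbfox1 and Gata2 are high in Ing1 KO, with means of 5.2 and 6.47 CPM.

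Aqp1 (ENSMUSG00000004655, chromosome 6) stood at 6.53, 4.90 and 6.13 CPM in DKO replicates 1 to 3 and at 63.0, 30.2 and 22.1 CPM in Ing1 KO. It stood at 24.2, 22.1 and 15.47 CPM in Gadd45a KO and at 34.9, 21.9 and 24.3 CPM in WT. The 3 DKO libraries were below the other 9, while Ing1 KO, Gadd45a KO and WT overlapped each other. The DKO mean of 5.85 ± 0.85 CPM was 21.6% of the WT mean of 27.0 ± 6.92 CPM (SD, n = 3 each), a log2 difference of -2.18. Ing1 KO was above WT by 0.39 on the log2 scale, which rests on replicate 1, since its other 2 libraries lay within the WT range. The sum of both single differences would put DKO at 4.73 log2 CPM, and its mean was 2.55 log2 CPM. In bulk RNA, fewer cells of a type and less RNA per cell cannot be told apart, here and for the genes below.

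Egflam (ENSMUSG00000042961, chromosome 15) had the same shape at a lower level. It stood at 1.5, 1.93 and 2.36 CPM in DKO replicates 1 to 3 and at 7.91, 7.68 and 7.58 CPM in Ing1 KO. It stood at 10.1, 4.14 and 5.24 CPM in Gadd45a KO and at 7.62, 5.86 and 6.68 CPM in WT. DKO lay below every other library, and Ing1 KO, the tightest group, overlapped the top of the WT range. The DKO mean of 1.93 ± 0.432 CPM was 28.7% of the WT mean of 6.72 ± 0.884 CPM (SD, n = 3 each), and the log2 difference was -1.79. Ing1 KO and WT differed by 0.21 on the log2 scale. Gadd45a KO replicate 1 was the highest library of all 12, and without it the interaction was -1.48 in place of -1.85. Egflam overlaps 2 annotated genes on the opposite strand, Gm16030 and Gm16029, and the library kit does not mark strand, so reads of these cannot be told apart.

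Rbfox1 (ENSMUSG00000008658, chromosome 16) showed the other shape, high in Ing1 KO and near WT in DKO. It stood at 1.67, 1.86 and 1.51 CPM in DKO replicates 1 to 3 and at 5.66, 6.19 and 3.74 CPM in Ing1 KO. It stood at 2.76, 1.84 and 1.79 CPM in Gadd45a KO and at 1.66, 1.10 and 1.41 CPM in WT. All Ing1 KO libraries were above the other 9, and DKO overlapped WT. Ing1 KO had 3.74 times the mean CPM of WT, at 5.20 ± 1.29 against 1.39 ± 0.283 CPM, while DKO had 1.21 times (SD, n = 3 each). Gadd45a KO was also above WT without overlap, by 0.59 on the log2 scale. The single differences would together put DKO at 2.95 log2 CPM, and its mean was 0.79 log2 CPM. Rbfox1 spans another annotated gene on its own strand, 1700123O21Rik, which lies within an intron.

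Gata2 (ENSMUSG00000015053, chromosome 6) stood at 1.47, 1.36 and 2.15 CPM in DKO replicates 1 to 3 and at 8.56, 7.95 and 2.90 CPM in Ing1 KO. It stood at 2.63, 2.47 and 2.78 CPM in Gadd45a KO and at 2.48, 2.27 and 2.83 CPM in WT. Ing1 KO lay above WT and DKO below it, both without overlap, and Gadd45a KO lay on WT. The margins were narrow at 1 library each: Ing1 KO replicate 3 was close to the highest WT library, and DKO replicate 3 close to the lowest. On the log2 scale Ing1 KO was above WT by 1.20 and DKO below it, at -0.61. Gata2 was thus the gene whose single and double knockout libraries lay on opposite sides of WT without overlap. Without Ing1 KO replicate 3, its interaction was -2.37 in place of -1.87.

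**Figure D2:**
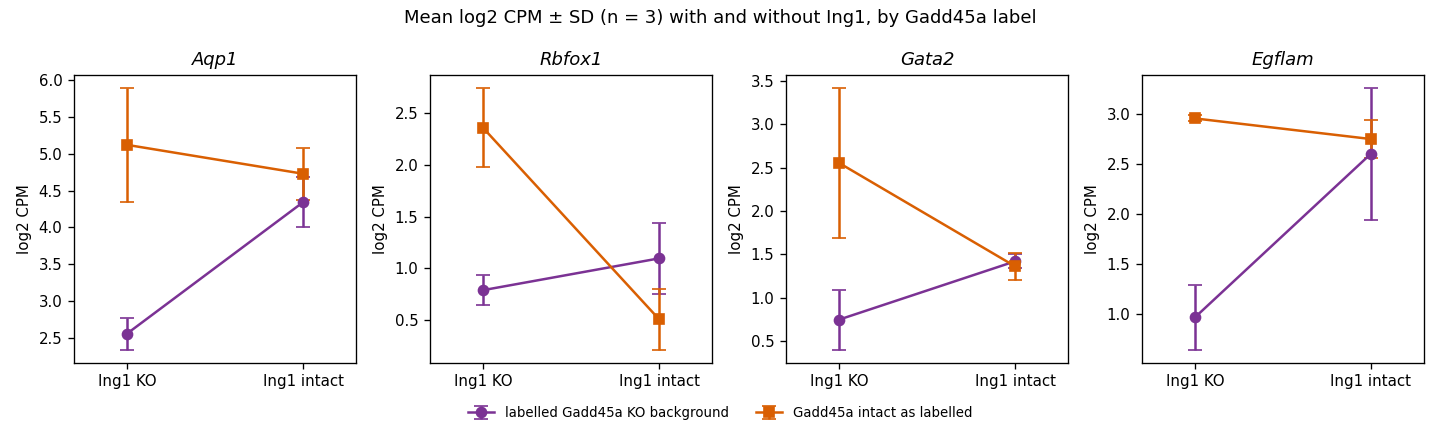
Mean log2 CPM ± SD (n = 3 libraries) of each gene in Ing1 KO genotypes (left) and Ing1-intact genotypes (right), with 1 line for the labelled Gadd45a KO background (DKO and Gadd45a KO) and 1 for the background labelled intact (Ing1 KO and WT). Lines that are not parallel show the interaction, which ran from -2.18 for Aqp1 to -1.85 for Egflam.

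The 4 interactions were -2.18 for Aqp1, -2.16 for Rbfox1, -1.87 for Gata2 and -1.85 for Egflam on log2 CPM, beside within-group SDs of 0.47, 0.30, 0.47 and 0.38. All 4 are among the 1118 genes called lower in the interaction by edgeR's quasi-likelihood test (7.4% of genes tested), as the choice of genes required. The boundary of the group is not sharp. Just outside it on edgeR's scale, where Egflam stood at -1.94, were Lama1 at -1.90, Six2 at -1.87, Pitx1 at -1.85 and Ttc9 at -1.84. On mean log2 CPM, Pitx1 would come before Egflam, at -1.849 against -1.848. Col2a1 had a more negative value of -2.36 but was not called, with an adjusted p of 0.0932 (edgeR). The floor of 2 CPM kept out other called genes. Among these, Msln stood at -2.65, Aqp5 at -2.54 and Upk3b at -2.17 on edgeR's scale.

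Within Ing1 KO, replicate 3 was the lowest library for each of the 4 genes, though for Egflam only by 7.58 against 7.68 CPM. Its cartilage marker sum was also the lowest, at 42.6 CPM, against 94.3 and 87.9 CPM in Ing1 KO replicates 1 and 2. Cartilage sums ran from 34.8 to 39.9 CPM in DKO, 38.6 to 44.6 in Gadd45a KO and 30.5 to 40.2 in WT. Skeletal muscle markers summed to 115, 133 and 83.8 CPM in Ing1 KO replicates 1 to 3, the order of Rbfox1 there. Their sums were 64.1 to 101 CPM in DKO, 49.6 to 67.6 CPM in Gadd45a KO and 56.5 to 59.2 CPM in WT. The list did not rise as a whole in Ing1 KO against WT. Of 5 muscle markers tested, 1 was called higher and 2 lower there (12.1% and 11.4% of all genes were), with a median log2 of -0.60. Neuron markers summed to 146, 145 and 123 CPM in Ing1 KO replicates 1 to 3, 151 to 190 CPM in DKO, 113 to 148 CPM in Gadd45a KO and 118 to 131 CPM in WT. Of 5 neuron markers tested, 1 was called higher and 1 lower in Ing1 KO against WT. Replicate 3 was thus the lowest Ing1 KO library for these 3 lists too. The same held for fibroblast (58800 CPM), endothelial (8.13 CPM) and mesothelium markers (9.38 CPM), so it was not particular to the 3 lists. For macrophage (506 CPM) and mast cell markers (0.816 CPM) replicate 3 was the highest Ing1 KO library, and for erythroid markers (43 CPM) it was in the middle. Of the 7 cartilage markers tested, 2 were called higher in Ing1 KO against WT (12.1% of all genes were) and 0 lower. Mesothelium markers summed to 6.35 to 8.99 CPM in DKO and 9.38 to 12.2 CPM in Ing1 KO, against 5.94 to 8.96 CPM in Gadd45a KO and 4.76 to 8.21 CPM in WT. Of the 6 mesothelium markers tested, 3 were higher in Ing1 KO against WT, and 2 were lower in DKO against Ing1 KO (9.88% of all genes were). Endothelial markers, of which Cldn5 was at 0 throughout, summed to 11.3 to 12.5 CPM in DKO and 7.86 to 9.81 CPM over the other 9 libraries. Their directions were mixed: of 8 tested, 3 were called higher and 1 lower in DKO against WT (15.6% and 10.3% of all genes were). Mast cell markers summed to at most 1.26 CPM in any library, with Tpsb2, Tpsab1, Mcpt4 and Fcer1a at 0, and the globin genes Hba-a1 and Hbb-bt were at 0. The whole erythroid list summed to 43.6 to 46.9 CPM in DKO, 37.1 to 47.4 in Ing1 KO, 32.4 to 35.9 in Gadd45a KO and 27.8 to 35.6 in WT. Of its 2 markers tested, 2 were called higher in DKO against WT (15.6% of all genes were). All 10 macrophage markers were called higher in DKO than in WT (15.6% of all genes were). The part of these cell types in the levels of the 4 genes was not tested.

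**Figure D3:**
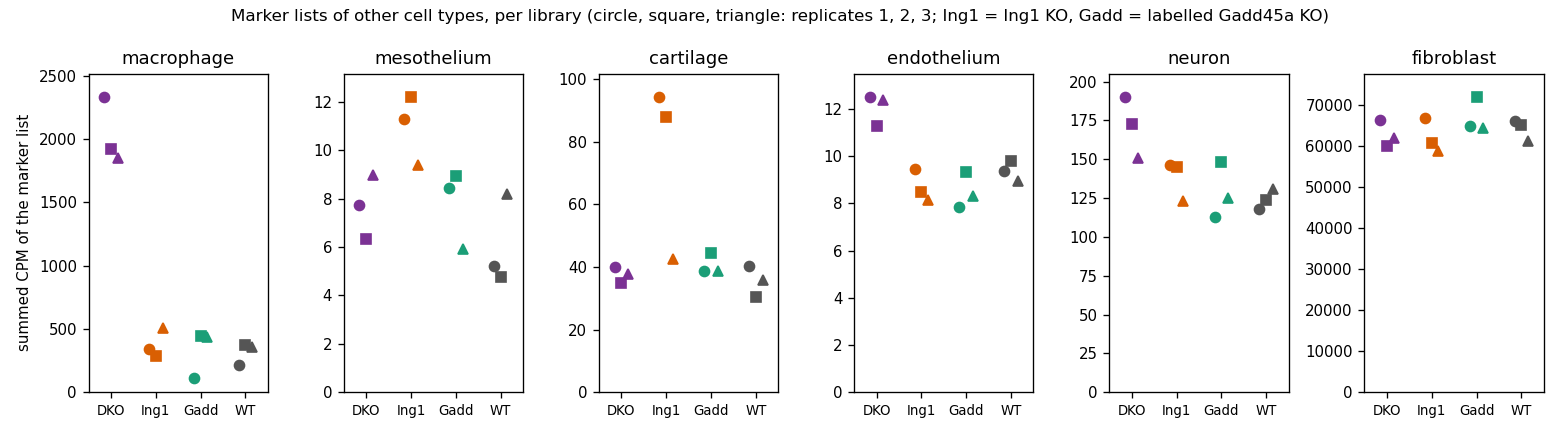
Summed CPM of marker lists per library, in DKO, Ing1 KO, labelled Gadd45a KO and WT from left to right, each panel on its own scale from 0. Macrophage sums stand apart in DKO (1850 to 2330 CPM), and cartilage sums in Ing1 KO replicates 1 and 2 (94.3 and 87.9 CPM), while fibroblast sums overlap.

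Over the 12 libraries, the profiles of the 4 genes fell into the same pairs, which is no separate result, since the same values are used. Likeness was measured as the root mean square difference of log2 CPM, each gene centred on its own mean, as a description over libraries that share their genotypes. It was 0.47 between Rbfox1 and Gata2 and 0.49 between Aqp1 and Egflam, against 0.94 between Aqp1 and Rbfox1, 0.85 between Rbfox1 and Egflam, and 0.67 for both other pairs. Among 11655 candidate genes, the nearest to Aqp1 were Ebf2 (0.44), a transcription factor of fat cell precursors, and Ggct (0.46), then Egflam (0.49), Npy1r (0.51) and Six2 (0.52). The nearest to Egflam was Cdh13 (0.34), a cadherin without a cytoplasmic tail, followed by Dner (0.38), and Smoc2 (0.41) and Ggct (0.43) were also near it. The nearest to Rbfox1 was Foxc1 (0.26), a forkhead factor of mesenchyme, followed by Stmn2 (0.29), Dusp27 (0.31), Smoc1 (0.32) and Ttc9 (0.33). The nearest to Gata2 was Scx (0.23), the tendon transcription factor scleraxis, followed by Masp1 (0.26), Cdsn (0.31), Ttc9 (0.32) and Sobp (0.33).

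Scx stood at 1.27, 1.04 and 1.19 CPM in DKO, 5.17, 4.79 and 2.40 CPM in Ing1 KO, 1.61, 1.79 and 1.60 CPM in Gadd45a KO, and 2.07, 1.23 and 1.93 CPM in WT. Like Gata2, it was high in Ing1 KO replicates 1 and 2 and lower in replicate 3. Ebf2 stood at 3.45, 2.24 and 2.55 CPM in DKO, 14.7, 8.21 and 4.29 CPM in Ing1 KO, 8.65, 7.19 and 7.28 CPM in Gadd45a KO, and 7.84, 6.26 and 8.78 CPM in WT. It shared with Aqp1 the low DKO libraries and an Ing1 KO group that fanned out in the same order of replicates.

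**Figure D4:**
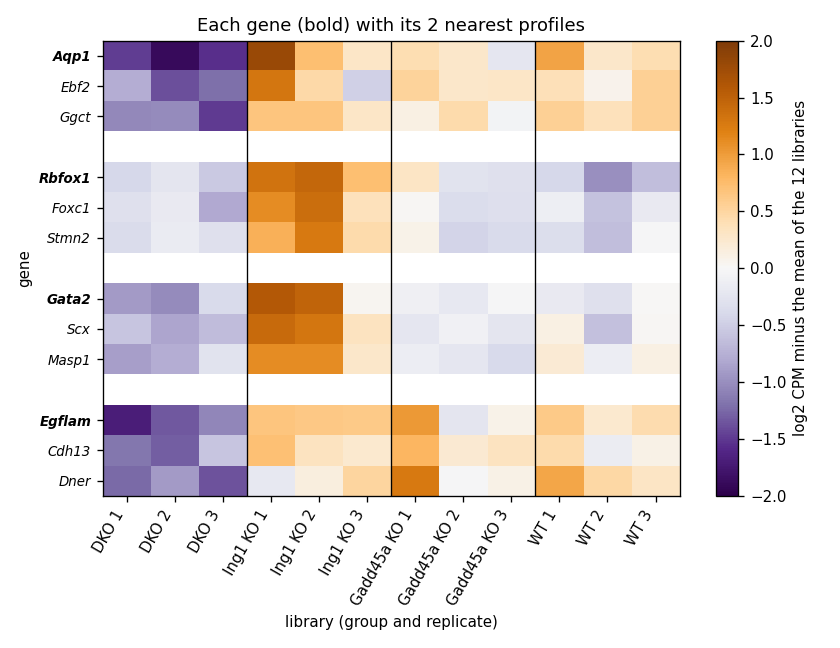
Log2 CPM of the 4 genes (bold) and the 2 nearest profiles of each, less the gene's mean over 12 libraries, by library from DKO through Ing1 KO and Gadd45a KO to WT. Aqp1, Egflam and their neighbours in profile are low in DKO, and Rbfox1, Gata2 and theirs are high in Ing1 KO replicates 1 and 2.

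Related genes of the 4, from 6 lists (other aquaporins, tissue splicing regulators, GATA factors and partners, dystroglycan ligands and complex, dystroglycan glycosylation, adipogenesis regulators), were tested over all genes, and 80 of them passed the filter on low counts. In the interaction 18 of the 80 were called (22.5%), against 17.8% of all genes tested; 8 were higher (10.4% of all genes) and 10 lower. In DKO against WT 24 were called (30%), beside 25.9% of all genes, and in Ing1 KO against WT 19 (23.8%), beside 23.5%. In DKO against Ing1 KO 26 were called (32.5%), beside 24.8% of all genes, and in DKO against Gadd45a KO 25 (31.2%), beside 26.4%. In Gadd45a KO against WT 0 were called by edgeR, beside 0.00662% of all genes. There 7 of the 80 had an unadjusted p under 0.05, beside 1331 of all 15098 genes tested (edgeR). DESeq2 called 1 of the 80, beside 31 genes in all. Same-numbered Gadd45a KO and WT libraries deviated together. With a replicate block in a fit of these groups alone, edgeR called 13 genes, with 0 of them related. Without the block that fit called 0, and the model of all 4 groups called 1 with the block or without it. Leaving out WT replicate 2 took the interaction calls to 7 and the Ing1 KO calls against WT to 10. The interaction calls were 10 without WT replicate 3 or DKO replicate 1, and 8 without Ing1 KO replicate 2 or DKO replicate 2. The Ing1 KO calls against WT were 11 without Ing1 KO replicate 2. The median log2 interaction was -0.12 over the 80 and 0.01 over all genes.

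Among aquaporins, 2 of 11 others passed the filter. Aqp5, a water channel of gland and lung epithelium, stood at 0.633, 0.411 and 0.663 CPM in DKO, 4.57, 1.88 and 2.01 CPM in Ing1 KO, 1.04, 1.56 and 1.02 CPM in Gadd45a KO, and 1.39, 0.348 and 1.32 CPM in WT. Each Ing1 KO library was above every library of the other genotypes, and DKO overlapped WT. Aqp5 was higher in Ing1 KO than in WT by 1.47 ± 0.46 (log2, SE; adjusted p = 0.0392, edgeR). It was lower in DKO than in Ing1 KO, at -2.29 ± 0.50 (adjusted p = 0.00717, edgeR), and its interaction was -2.54 ± 0.70 (adjusted p = 0.0316, edgeR). The Ing1 KO call was lost (adjusted p of 0.0512 to 0.114, log2 of 0.94 to 1.70) on leaving out WT replicate 2 or 3, Gadd45a KO replicate 1 or 3, Ing1 KO replicate 1 or any DKO library, with no filter on low counts (0.0928) and in a fit of only the groups compared (0.127). The interaction call was lost (0.0512 to 0.0751, log2 of -2.67 to -2.33) with no filter (0.0706, -2.57) and without Gadd45a KO replicate 1 or 2 or any DKO library. Aqp11, an intracellular aquaporin, was lower in DKO than in Gadd45a KO, at -0.95 ± 0.29 (adjusted p = 0.0263, edgeR), a call that was lost (0.0615 to 0.106, log2 of -0.96 to -0.80) without Gadd45a KO replicate 1 or 3 or DKO replicate 1 or 3, with no filter (0.0518) and under DESeq2 (0.104). Per kilobase of exon, Aqp1 was the highest of the 3, at 2.23 CPM in DKO, 14.7 in Ing1 KO, 7.84 in Gadd45a KO and 10.3 in WT, and Aqp5 and Aqp11 reached at most 1.09 and 0.0598.

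Rbfox1 is a minor member of its family here. Per kilobase of exon, Rbfox2, which binds the same RNA element, stood at 46.7 CPM in DKO, 46.9 in Ing1 KO, 49.8 in Gadd45a KO and 49.6 in WT. Rbfox1 stood at 0.382 in DKO, 1.18 in Ing1 KO, 0.484 in Gadd45a KO and 0.316 in WT on that scale. The Rbfox2 interaction was -0.01 ± 0.05 (log2, SE; adjusted p = 0.891, edgeR), and it ran from -0.03 to 0 on leaving out 1 library. No comparison called Rbfox2. Rbfox3, the neuronal member, had 2 counts over the 12 libraries. Of 22 tissue splicing regulators tested, 3 were called higher (15.6% of all genes were) and 3 lower (10.3% of all genes were) in DKO against WT. Rbm20, a splicing factor of heart muscle, was lower in DKO than in WT, at -1.15 ± 0.20 (adjusted p = 0.00122, edgeR). Ptbp3, a polypyrimidine tract-binding protein, was higher, at 0.29 ± 0.06 (adjusted p = 0.00407, edgeR).

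Among GATA factors, Gata3 was likewise higher in Ing1 KO, by less than Gata2 stood above WT there. Gata3, a factor of T cells and many epithelia, had 0.805, 1.14 and 1.3 CPM in DKO, 1.52, 1.69 and 2.09 CPM in Ing1 KO, 1.41, 1.16 and 1.14 CPM in Gadd45a KO, and 0.871, 0.856 and 1.29 CPM in WT. All 3 Ing1 KO libraries were above the other 9, and DKO overlapped WT. It was higher in Ing1 KO than in WT by 0.82 ± 0.23 (log2, SE; adjusted p = 0.0202, edgeR) and lower in DKO than in Ing1 KO, at -0.71 ± 0.23 (adjusted p = 0.0367, edgeR). The first of these calls was lost (0.052 to 0.0885, log2 of 0.68 to 0.85) without WT replicate 1 or 2 or Ing1 KO replicate 2 or 3. The second was lost (0.0504 to 0.147, log2 of -0.74 to -0.53) without Gadd45a KO replicate 3, Ing1 KO replicate 2 or 3 or DKO replicate 1 or 2, and in a fit of only the groups compared (0.0597). Trps1, a GATA-type repressor of cartilage and hair, had 18.3, 18.4 and 21.0 CPM in DKO, 42.2, 37.4 and 20.7 CPM in Ing1 KO, 14.9, 17.0 and 16.4 CPM in Gadd45a KO, and 18.8, 14.5 and 22.5 CPM in WT. As with Gata2, Ing1 KO replicate 3 was the low one of its group. It was higher in Ing1 KO than in WT by 0.85 ± 0.24 (adjusted p = 0.0334, edgeR), a call lost (0.05 to 0.118, log2 of 0.65 to 0.86) without WT replicate 1 or 2, Gadd45a KO replicate 2 or 3, Ing1 KO replicate 1 or 2, or DKO replicate 1 or 2. That call was also lost with no filter (0.0685), in a fit of only the groups compared (0.136) and with a replicate block (0.069). Gata6 was called in no comparison, and Gata1, Gata4 and Gata5 had 3, 16 and 3 counts over the 12 libraries.

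Of 12 GATA factors and partners tested, 4 were called higher in DKO against WT (15.6% of all genes were) and 0 lower. Runx1 (0.33), Ldb1 (0.07) and Erg (-0.50), on the log2 scale, were among those not called. Tal1, Lyl1 and Fli1, which work with Gata2 in blood stem cells, were higher in DKO than in WT by 2.90, 2.82 and 1.3 on the log2 scale, all 3 called by edgeR. Tal1 stood at 2.45, 1.96 and 2.12 CPM in DKO, 0.258, 0.482 and 0.456 CPM in Ing1 KO, 0.026, 0.378 and 0.464 CPM in Gadd45a KO, and 0.191, 0.321 and 0.361 CPM in WT. DKO did not overlap any other genotype for Tal1, while Gata2 was at its lowest in the same libraries. The macrophage marker sums of 1850 to 2330 CPM in DKO, against 214 to 371 CPM in WT, moved with these 3 genes, and their part in the difference was not tested.

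Among the dystroglycan ligands, Lama1 had the pattern of Egflam. It was named for a small adjusted p, and its interaction came next after that of Egflam (-1.90 against -1.94 on edgeR's scale). The choice thus favoured a low DKO level. Lama1 encodes the laminin alpha chain of early basement membranes. It stood at 0.690, 0.758 and 1.06 CPM in DKO, 3.00, 4.82 and 2.25 CPM in Ing1 KO, 2.06, 2.98 and 2.67 CPM in Gadd45a KO, and 2.86, 2.54 and 2.80 CPM in WT. DKO lay below every other library, and the remaining genotypes overlapped. It was lower in DKO than in WT, at -1.69 ± 0.28 (log2, SE; adjusted p = 0.00103, edgeR), than in Ing1 KO, at -1.99 ± 0.28 (adjusted p = 0.000461, edgeR), and than in Gadd45a KO, at -1.61 ± 0.28 (adjusted p = 0.00135, edgeR).

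The 2 large heparan sulfate proteoglycans that also bind dystroglycan changed in Ing1 KO, in opposite directions, and in DKO their libraries overlapped WT. Hspg2 (perlecan) stood at 833, 723 and 897 CPM in DKO, 1090, 1100 and 1010 CPM in Ing1 KO, 931, 912 and 805 CPM in Gadd45a KO, and 878, 734 and 792 CPM in WT. It was higher in Ing1 KO than in WT by 0.41 ± 0.09 (log2, SE; adjusted p = 0.00499, edgeR), and DKO against WT was 0.03 ± 0.09 (adjusted p = 0.835, edgeR). Agrn (agrin) stood at 139, 126 and 147 CPM in DKO, 89.5, 104 and 93.8 CPM in Ing1 KO, 144, 128 and 124 CPM in Gadd45a KO, and 148, 145 and 117 CPM in WT. It was lower in Ing1 KO than in WT, at -0.51 ± 0.10 (adjusted p = 0.00353, edgeR), and DKO against WT was 0.01 ± 0.10 (adjusted p = 0.959, edgeR). Neither DKO difference kept its sign across alternatives. Dag1, dystroglycan itself, was called in no comparison, with 43.4 CPM per kilobase in DKO, 47.5 in Ing1 KO, 45.3 in Gadd45a KO and 44.7 in WT. Of 17 ligands and complex members tested, 0 were higher and 7 lower in DKO against WT (10.3% of all genes were lower), and of 16 enzymes that glycosylate dystroglycan 0 were higher and 1 was lower. In Ing1 KO against WT, 2 of the 17 were higher and 5 lower (12.1% and 11.4% of all genes were). Sspn, Sgce and Slit2 were called lower in both, at -0.52, -0.42 and -0.72 in DKO and -0.50, -0.39 and -0.50 in Ing1 KO (log2).

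Aqp1 and Gata2 lie on chromosome 6, as Gadd45a does, which led to a look at gene order, chosen after the values were seen. Of the 5 tested genes on either side of Aqp1 in a GRCm38 annotation, 5 of 10 were called lower in the interaction (7.4% of all genes were), and 6 of 10 were lower in DKO against WT (10.3% of all genes were). Called lower in the interaction were Ggct, Nod1 and Gars on one side and Adcyap1r1 and Pde1c on the other. Next to Rbfox1 1 of 10 was lower in the interaction, and next to Gata2 and Egflam 0 of 10 each.

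Adcyap1r1, the receptor for the neuropeptide PACAP and the nearest tested gene after Aqp1, stood at 9.58, 11.1 and 11 CPM in DKO, 28.5, 35.9 and 40.9 CPM in Ing1 KO, 17.0, 14.9 and 11.7 CPM in Gadd45a KO, and 17.1, 13.5 and 17.7 CPM in WT. DKO lay below and Ing1 KO above WT, both without overlap. It was higher in Ing1 KO than in WT by 1.13 ± 0.16 (log2, SE; adjusted p = 0.000955, edgeR). It was lower in DKO than in WT, at -0.61 ± 0.17 (adjusted p = 0.0212, edgeR), a call lost (0.0715 to 0.0837, log2 of -0.56 to -0.54) without WT replicate 1 or 3 or DKO replicate 1, and with no filter on low counts (0.0575, -0.62). Its interaction was -1.59 ± 0.23 (adjusted p = 0.00272, edgeR).

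Pde1c, a phosphodiesterase that splits cyclic nucleotides, stood at 0.575, 0.569 and 0.663 CPM in DKO, 2.15, 2.19 and 1.99 CPM in Ing1 KO, 1.22, 1.64 and 1.39 CPM in Gadd45a KO, and 1.74, 1.68 and 1.68 CPM in WT. Ggct, an enzyme of glutathione turnover, stood at 1.01, 1.01 and 0.716 CPM in DKO, 3.41, 3.42 and 2.61 CPM in Ing1 KO, 2.29, 2.90 and 2.04 CPM in Gadd45a KO, and 3.13, 2.75 and 3.13 CPM in WT. Nod1, a sensor of bacterial cell wall fragments, stood at 10.9, 10.6 and 9.97 CPM in DKO, 20.0, 20.6 and 18.2 CPM in Ing1 KO, 18.6, 25.0 and 21.3 CPM in Gadd45a KO, and 23.4, 18.6 and 23.7 CPM in WT. All 3 genes had every DKO library below every library of the other genotypes, as Aqp1 did. They are named because they were called lower in the interaction, so the choice favoured a low DKO level. The tests of DKO against WT below use the same DKO and WT libraries as that choice and are no separate result. How many of all genes show such a separation was not counted. In DKO against WT the log2 difference was -1.49 ± 0.18 for Pde1c (adjusted p = 0.000131, edgeR), -1.72 ± 0.20 for Ggct (adjusted p = 0.000104, edgeR) and -1.06 ± 0.12 for Nod1 (adjusted p = 9.03e-05, edgeR). In Ing1 KO against WT none of these 3 was called.

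**Figure D5:**
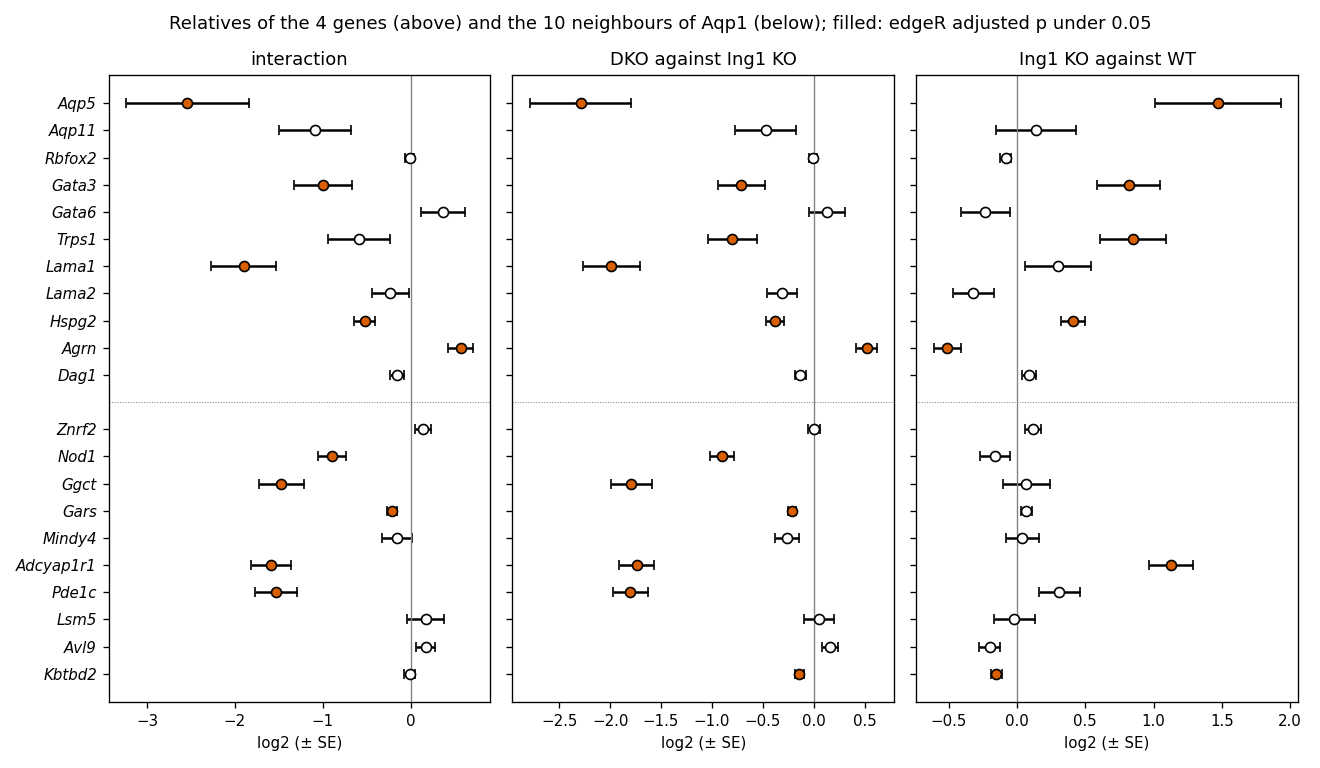
Log2 interaction (left) and log2 fold changes in DKO against Ing1 KO (middle) and Ing1 KO against WT (right), with SE, for relatives of the 4 genes and, below the dotted line, the 10 neighbours of Aqp1 in gene order (Aqp1 lies between Mindy4 and Adcyap1r1). Filled points are called by edgeR. Aqp5 (-2.54), Lama1, Ggct, Pde1c and Adcyap1r1 lie at -1.47 or lower in the interaction, and Rbfox2 lies at -0.01.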

How the data were processed

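The values are counts per gene, 1 table per library, as deposited by the authors. TopHat2 2.0.9 with Bowtie2 2.1.0, HTSeq 0.5.4, DESeq and the build mm9 (NCBIM37) are named in the submitters' processing notes; per the labels' protocols the kit was TruSeq v2 with single reads of 51 cycles. How HTSeq was set for strand was not given in the sources, so overlapping genes are named. Reads assigned to no gene (23.89% to 24.91% of those listed) were left out of library totals. Depth of 31493168 to 42852059 counts per library sets the precision, and SDs over 3 libraries and SEs carry it. Symbols and gene order came from GENCODE (GRCm38), matched by identifier (32919 of 37991), and promoters from RefSeq, all 4 genes matched.

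The test was edgeR 4.0.16's (under R 4.3.3), with TMM, filterByExpr (15098 genes kept), 1 model of 4 groups, robust quasi-likelihood, two-sided, Benjamini-Hochberg over all genes, threshold 0.05 (8 residual degrees of freedom). Levels are CPM on TMM-scaled library sizes, and mean log2 CPM used a prior count of 2. The test was tried on simulated counts. Replicate numbers were taken to pair 2 groups where all same-numbered libraries' deviations from the group means correlated over 0.1. This held for Gadd45a KO with WT (r = 0.34, 0.11 and 0.13), although the labels name no pairing and replicate 2 matched another number best. It held for no other pair of groups (r from -0.18 to 0.21). An exact permutation test of 3 against 3 libraries cannot go below p = 0.1, so none was run. The 4 genes and all lists were chosen with earlier results of these data known. Named relatives are the called members of a list with the smallest adjusted p, up to 3 per comparison, or abundant members where none was called, plus family members of the 4 genes. Profiles were compared over genes with a symbol, and 1 near profile is not reported here. The neighbours in gene order, the markers Msln and Upk3b, and Scx and Ebf2 among the nearest profiles were picked after their values were seen. Alternatives were DESeq2 1.42.0, RLE normalisation, no filter, only the groups compared, a replicate block, other prior counts, and leaving out each library in turn.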

Additional observations from a re-analysis of the deposited data

Results flagged for a closer look

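These results are given because the knockout effect differed by Gadd45a label in a test of the difference itself, the interaction in edgeR (values on the log2 scale). Of the 18 relatives of the 4 genes called in it, only up to 3 per list, those with the smallest adjusted p, are named. Among those named the interaction was negative for Aqp5 (-2.54), Lama1 (-1.90), Klf15 (-1.58), Rbm20 (-1.05), Gata3 (-1), Hspg2 (-0.52), Srebf1 (-0.33) and Dolk (-0.25). It was positive for Tal1 (2.40), Fli1 (0.98), Cebpa (0.79), Agrn (0.57), Ptbp3 (0.43) and Qk (0.25). Among genes next to the 4 in gene order it was negative for Adcyap1r1 (-1.59), Pde1c (-1.53), Ggct (-1.47), Nod1 (-0.89), Alg1 (-0.25) and Gars (-0.21), and positive for Fyb (2.20) and Lifr (0.48). The mesothelium markers Msln (-2.65) and Upk3b (-2.17) were negative too.

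Of these, Lama1, Hspg2, Srebf1, Fli1, Cebpa, Ptbp3, Adcyap1r1, Pde1c, Ggct and Nod1 stayed called on leaving out any single library. The other calls were lost without at least 1 library, at adjusted p values of 0.0508 to 0.12 (edgeR). WT replicate 2 was such a library for Rbm20, Gata3, Dolk, Klf15, Tal1, Agrn, Qk, Alg1, Gars, Fyb, Msln and Upk3b, with values of -1.04, -0.90, -0.24, -1.60, 2.32, 0.53, 0.24, -0.26, -0.20, 2.04, -2.35 and -1.90 without it. Further libraries ended these calls. Rbm20 lost its call without WT replicate 3, Ing1 KO replicate 2 or DKO replicate 2 (-1.02 to -0.93), and Klf15 without WT replicate 3, Gadd45a KO replicate 1 or 3 or Ing1 KO replicate 2 (-1.58 to -1.47). Gata3 lost it without WT replicate 1, any Gadd45a KO library, Ing1 KO replicate 2 or 3 or DKO replicate 1 or 2 (-1.06 to -0.83), with no filter on low counts (-1.03) and under DESeq2 (-1.01). Dolk lost it without WT replicate 3, Gadd45a KO replicate 2 or 3 or any Ing1 KO or DKO library (-0.27 to -0.22). Tal1 lost it without WT replicate 3, Ing1 KO replicate 1 or 2 or any DKO library (2.18 to 2.56), and Qk without WT replicate 3, Gadd45a KO replicate 2, Ing1 KO replicate 2 or DKO replicate 2 (0.21 to 0.25). Aqp5 lost it without Gadd45a KO replicate 1 or 2 or any DKO library (-2.67 to -2.33) and with no filter (-2.57), and Agrn with no filter on low counts (0.54).

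Next to the 4 genes, Gars lost its call without Gadd45a KO replicate 3, Ing1 KO replicate 2 or 3 or DKO replicate 1 or 2 (-0.20 to -0.18). Alg1 lost it without WT replicate 3, Gadd45a KO replicate 2 or 3, Ing1 KO replicate 2 or 3 or DKO replicate 1 or 2 (-0.26 to -0.22), and Fyb without WT replicate 3 (2.14) or Ing1 KO replicate 2 (2.07). Lifr lost it without WT replicate 1 or 3, Gadd45a KO replicate 1 or 3, Ing1 KO replicate 2 or 3 or any DKO library (0.39 to 0.49), with no filter (0.45) and with a replicate block (0.48). Msln lost it without Gadd45a KO replicate 1 or 2 or DKO replicate 1 or 2 (-2.63 to -2.37), and Upk3b without WT replicate 1, Gadd45a KO replicate 1 or 2, Ing1 KO replicate 1 or 2 or any DKO library (-2.42 to -1.83), with no filter (-2.20) and with a replicate block (-2.19). Fyb and Tal1, both expressed in blood cells, moved with the macrophage marker sums (1850 to 2330 CPM in DKO, 214 to 371 CPM in WT), whose part was not tested.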

How the results depend on the processing

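The interactions of Aqp1, Rbfox1, Gata2 and Egflam kept their sign under every alternative run. Leaving out 1 library moved that of Gata2 between -2.37 (without Ing1 KO replicate 3) and -1.60, that of Aqp1 between -2.51 and -1.76, that of Rbfox1 between -2.38 and -1.96, and that of Egflam between -2.13 and -1.48. Counts of called genes moved more. Without 1 library, genes called ran from 1858 to 3553 in Ing1 KO against WT (3543 with all), 1 to 13 in Gadd45a KO against WT (1 with all), 2249 to 3862 in DKO against Ing1 KO (3740 with all) and 1300 to 3285 in the interaction (2687 with all). The lowest counts came without Ing1 KO replicate 2 (1858 and 2249) and WT replicate 2 (1300). The related genes called ran from 10 to 23, 0 to 1 and 7 to 20 in Ing1 KO against WT, Gadd45a KO against WT and the interaction. In Gadd45a KO against WT, DESeq2 called 31 genes, 1 of them related, and a fit of only these groups called 0; the cause was not tested. Of the values given in the text, those that changed sign or reached 0 were near 0 and not called. Hspg2 in DKO against WT ran from -0.05 without DKO replicate 3 to 0.11 without DKO replicate 2, and was -0.03 without WT replicate 2. Agrn in DKO against WT ran from -0.09 without WT replicate 3 to 0.07 without WT replicate 1. It was 0 with RLE normalisation, no filter, DESeq2 or only the groups compared. The Rbfox2 interaction was 0 without WT replicate 3.

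Replicate numbers paired the libraries of Gadd45a KO and WT by the rule used, and not those of the other comparisons. In Gadd45a KO against WT, a replicate block in a fit of only these groups called 13 genes, an alternative chosen after seeing the data. With the replicate number as a block, 2514 genes were called in the interaction and 3434 in Ing1 KO against WT. Among the genes named, the block lost the calls of Trps1 in Ing1 KO against WT (adjusted p = 0.069) and of Lifr and Upk3b in the interaction (0.069 and 0.085, edgeR). Neighbours of Aqp1 called lower in the interaction numbered 4 or 5 under every alternative. Rbfox1, Gata2 and Egflam stood between 1.1 and 10.1 CPM, which limits the precision of their log2 values.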

Other observations

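Some regulators of fat cell formation, in which Gata2 is known to act, were called in the genotypes that lack Ing1. Of 12 tested, 1 was higher and 5 were lower in DKO against WT (edgeR; 25.9% of all genes were called), and 2 were higher and 4 lower in Ing1 KO against WT (23.5% of all genes were called). Klf15, a factor of fat and muscle metabolism, stood at 0.115, 0.600 and 0.398 CPM in DKO, 0.930, 1.20 and 1.01 CPM in Ing1 KO, 1.61, 1.29 and 1.48 CPM in Gadd45a KO, and 1.36, 1.42 and 1.38 CPM in WT. DKO lay below all other libraries. Its log2 fold change in DKO against WT was -1.91 ± 0.34 (SE; adjusted p = 0.00132, edgeR). Cebpa, a driver of fat cell differentiation, was lower in Ing1 KO than in WT, at -0.85 ± 0.12 (adjusted p = 0.000436, edgeR), and DKO against WT was -0.22 ± 0.11 (adjusted p = 0.185, edgeR).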
